A study of Homo sapiens with 12 samples.

Results

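The bile acid and FXR genes described here are 9 genes chosen by name: NR1H4, NR0B2, FGF19, SLC51A, SLC51B, FABP6, SLC10A2, HNF4A and NR5A2. Their symbols were matched to the Ensembl gene IDs of a count table of 60675 genes. The genes were selected with earlier results of these data known, the fall of NR0B2 at the highest dose among them, so their values are a description of these libraries. Of the 9 genes, 8 passed the filter on low counts, as did 15374 genes in all, and SLC10A2 did not.

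RNA was sequenced from HT29 cells, a human colorectal adenocarcinoma line, after 24 h with a water extract of the herb Aconitum carmichaeli Debeaux (ACD). The groups were vehicle (phosphate-buffered saline with 2% DMSO) and ACD at 20, 100 and 500 µg/mL, called the low, medium and high dose, with 3 libraries each. Per the paper's methods, the extract was dissolved in the same solvent and added to growth medium in the wells. The study asked which organ the extract mainly acts on, with HT29 standing for the intestine. The labels do not say whether the libraries of a group came from separate cultures, so the p-values measure the spread between these libraries, and the treatment note attached to the libraries describes an extract of Poria cocos while the titles name ACD.

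The farnesoid X receptor FXR, encoded by NR1H4, is a nuclear receptor that binds bile acids and acts on DNA together with a retinoid X receptor. In the ileum it turns on FGF19, a hormone that travels to the liver and, through FGFR4 and its partner KLB, lowers bile acid synthesis. It also turns on NR0B2, whose product SHP lacks a DNA-binding domain and represses other nuclear receptors, among them LRH-1 (NR5A2) and HNF4A. Ileal enterocytes take up bile acids through SLC10A2, bind them inside the cell with FABP6 and release them through the SLC51A and SLC51B pair.

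Nuclear receptors of this family bind the half-site AGGTCA, and FXR with its partner binds inverted repeats of it with a single base between them. RefSeq (GRCh38.p14) gave 9 promoters for 7 of the genes, and NR0B2 and FGF19 were not in that table. The window searched was the 250 bases before the start that RefSeq gives each promoter. There AGGTCA was found on either strand in 3 of these 9 promoters and in 12.1% of 35116 human promoters. The 3 promoters are shown because they carry the half-site, in capitals, which reads TGACCT where it lies on the opposite strand. They lie on the plus strand at chr1:200027460-200027709 for NR5A2, chr12:100503110-100503359 for NR1H4 and chr15:65045137-65045386 for SLC51B. Against the GENCODE gene coordinates given below, the NR1H4 window lies inside the gene and the NR5A2 window runs past the gene start.
NR5A2: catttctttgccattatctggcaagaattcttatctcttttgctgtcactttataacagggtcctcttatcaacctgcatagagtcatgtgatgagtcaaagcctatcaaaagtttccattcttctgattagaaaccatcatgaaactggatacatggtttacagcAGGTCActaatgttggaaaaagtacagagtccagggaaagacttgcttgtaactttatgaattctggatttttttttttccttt
NR1H4: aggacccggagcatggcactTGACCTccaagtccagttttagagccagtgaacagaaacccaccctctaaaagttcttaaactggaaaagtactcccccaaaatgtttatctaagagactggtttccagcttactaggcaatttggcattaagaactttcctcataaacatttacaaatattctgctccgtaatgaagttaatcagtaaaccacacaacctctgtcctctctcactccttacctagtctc
SLC51B: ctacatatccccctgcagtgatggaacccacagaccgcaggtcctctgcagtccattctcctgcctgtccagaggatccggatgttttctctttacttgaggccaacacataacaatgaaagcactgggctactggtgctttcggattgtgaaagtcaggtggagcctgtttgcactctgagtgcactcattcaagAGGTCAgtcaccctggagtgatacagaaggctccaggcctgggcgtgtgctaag
The full inverted repeat AGGTCANTGACCT was in none of the 35116 promoters. A looser core, GGTCANTNACC, was chosen after the sequences had been seen. It was found, on either strand, in SLC51B, where it overlaps the capitals, and in 24 promoters in all (0.0683%). A match describes the letters and does not show that a receptor binds there.

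Expected counts per library ranged from 15941255 to 33866644, with a median of 23833237. High-dose replicate 2 was the smallest and stood apart: the SD of its log2 differences from the other libraries of its group was 0.50, against 0.10 to 0.29 in the other 11 libraries. Mitochondrial genes held 14.0% to 16.6% of the counts in the high-dose libraries and 7.41% to 11.1% in the others. All 8 colon epithelium markers were over 1 CPM (read counts scaled to library size) in every group. Of 9 hepatocyte markers 1 was (SERPINA1), and ALB and APOA2 were at or near 0. Of 5 ileal enterocyte markers 1 was (FGF19), and APOA4 was at 0. A summed level cannot tell fewer expressing cells from less RNA per cell.

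The 9 genes differed widely in level. In vehicle libraries and per kilobase of exon, FGF19 was highest at 31.9 ± 0.647 CPM per kb (mean ± SD, n = 3), followed by HNF4A at 9.26 ± 0.735, NR0B2 at 4.45 ± 0.995 and NR5A2 at 1.07 ± 0.312. SLC51B (0.544 ± 0.221 CPM per kb) and FABP6 (0.434 ± 0.198) did not differ beyond their spread, and neither did NR1H4 (0.117 ± 0.0304) and SLC51A (0.0882 ± 0.0289). SLC10A2 was lowest at 0.0490 ± 0.00362 CPM per kb. The hormone, the repressor and their partner nuclear receptors were thus well covered by reads, while the bile acid receptor itself and the 4 genes of bile acid handling rested on at most 20 counts in any library.

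**Figure D1:**
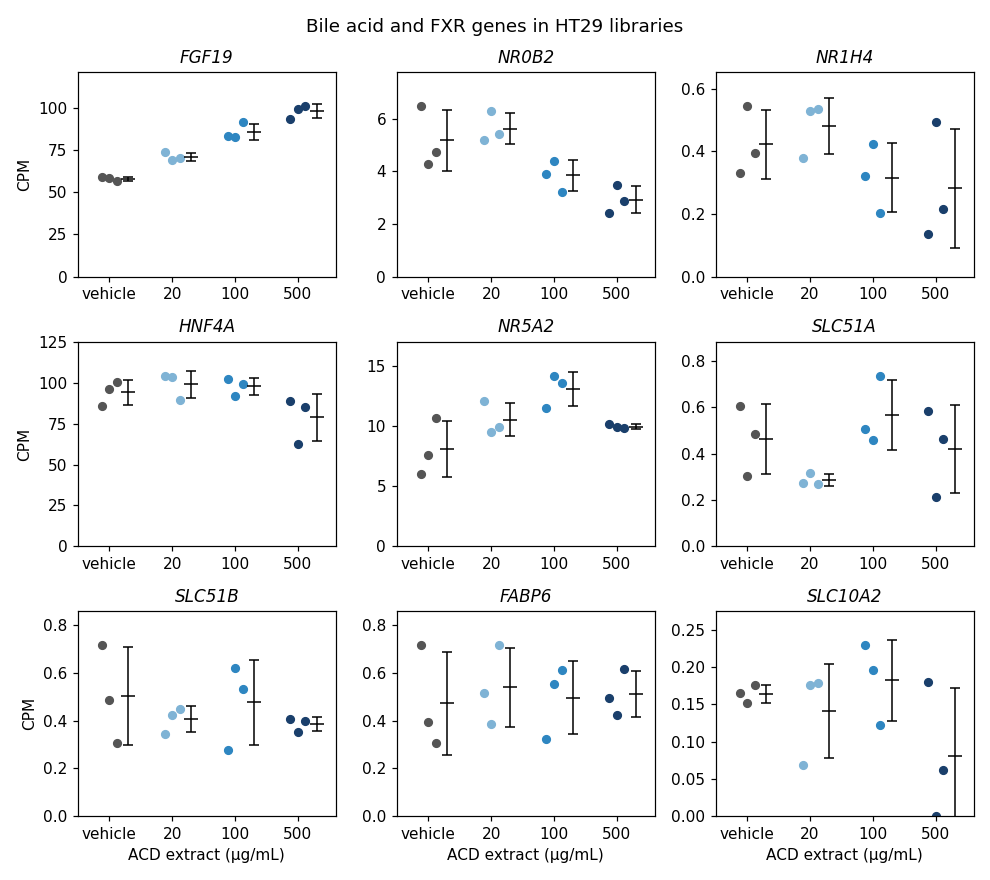
Levels in CPM of the 9 genes in each of the 12 libraries, by vehicle and ACD dose in µg/mL. Points are libraries and the bars beside them the mean ± SD of 3, cut at 0 for SLC10A2. FGF19 climbs at each dose from 58.0 to 98.1 CPM, NR0B2 is lowest at the high dose, and the genes under 1 CPM scatter.

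A gene was called where it changed more than 1.5-fold with an adjusted p below 0.05 (edgeR's quasi-likelihood test, Benjamini–Hochberg adjustment over all genes tested). At the high dose 2 of the 8 tested genes were called, FGF19 upward and NR0B2 downward, where 2.93% of all tested genes were called, 1.26% upward and 1.68% downward. The fall of NR0B2 was known when the genes were chosen, so this count is a description and nothing is read from it against the background. At the medium dose 0 of 8 were called, against 0.676% of all genes, with 3 genes at an unadjusted p under 0.05 (FGF19, NR0B2 and NR5A2), as were 11.7% of all genes. DESeq2 called 1 there, NR5A2, and 0.793% of all genes. At the low dose edgeR and DESeq2 both called 0 of 8, against 0.111% of all genes in edgeR and 0.282% in DESeq2. At an unadjusted p under 0.05 there were 2 genes (FGF19 and NR5A2) and 7.95% of all genes. The 3 dose comparisons share the vehicle libraries. Between high and low dose, which does not use them, 1 gene (NR0B2, from the same high-dose libraries) was called, against 1.58% of all genes.

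FGF19 (ENSG00000162344, chr11:69698238-69704022, minus strand, GRCh38) rose with dose. Its levels in replicates 1, 2 and 3 were 58.8, 58.6 and 56.7 CPM with vehicle, 73.9, 69.5 and 70.2 CPM at the low dose, 83.1, 82.8 and 91.4 CPM at the medium dose and 93.7, 99.5 and 101.2 CPM at the high dose. No library of a higher dose fell below any library of a lower one. Of all tested genes, 35 (0.228%) rose over the 4 groups without overlap and 17 fell so, a count made after the pattern had been seen. The group means were 58.0 ± 1.18 CPM with vehicle, 71.2 ± 2.37 at the low, 85.8 ± 4.88 at the medium and 98.1 ± 3.97 at the high dose (SD, n = 3).

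The high dose raised FGF19 by a log2 fold change of 0.76 (SE 0.0657, 1.69-fold, adjusted p = 3.59e-05 in edgeR). At the medium dose the log2 fold change was 0.56 (SE 0.0655, adjusted p = 0.00109 in edgeR), which at 1.48-fold lay just under the 1.5-fold minimum. At the low dose it was 0.29 (SE 0.0655, adjusted p = 0.134 in edgeR), and the groups did not overlap. The adjusted p there was 0.00239 with DESeq2 on all libraries. Over the alternatives it ran from 0.000444 in DESeq2 without high-dose replicate 2 to 0.457 in edgeR without vehicle replicate 2. None of them called the low-dose change, which stayed under the 1.5-fold minimum. FGF19 was also higher at the high than at the low dose, by a log2 difference of 0.46 (SE 0.0652, adjusted p = 0.00163 in edgeR, 1.38-fold). Over the 4 groups in order it rose by 0.25 (SE 0.0205) on the log2 scale per dose step (adjusted p = 1.13e-05 in edgeR). The rise at the high dose was 0.76 with mitochondrial genes left out and 0.75 with high-dose replicate 2 left out. Leaving out mitochondrial genes acts on FGF19 mainly through the scaling of the totals. It cannot address the higher mitochondrial share of the high-dose libraries, whose part in the rise was not tested.

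FGFR4 and KLB, the receptor and co-receptor of FGF19, were called at no dose in edgeR or DESeq2, though edgeR gave FGFR4 an unadjusted p under 0.05 at the medium and high doses. FGFR4 was at 109.4 ± 6.86 CPM with vehicle, 106.6 ± 6.59 at the low, 96.1 ± 5.59 at the medium and 91.9 ± 6.63 at the high dose (SD, n = 3). The log2 fold change at the high dose was −0.25 (SE 0.0811, adjusted p = 0.0983 in edgeR), with every high-dose library below every vehicle library. The slope of −0.09 (SE 0.0245) on the log2 scale per dose step passed the trend test (adjusted p = 0.0451 in edgeR). KLB stayed between means of 1.15 and 1.39 CPM, with a high-dose log2 fold change of −0.17 (SE 0.252), and −0.37 without high-dose replicate 2.

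NR1H4, the gene of FXR (ENSG00000012504, chr12:100473708-100564414, plus strand), was read 3 to 18 times per library. Its levels in replicates 1, 2 and 3 were 0.330, 0.546 and 0.395 CPM with vehicle, 0.378, 0.529 and 0.537 CPM at the low dose, 0.321, 0.424 and 0.205 CPM at the medium dose and 0.135, 0.496 and 0.215 CPM at the high dose. The groups overlapped in every comparison. At the high dose the log2 fold change was −0.78 (SE 0.451, 95% interval −1.77 to 0.20, adjusted p = 0.364 in edgeR), an interval that holds both a more than 1.5-fold loss and no change. Single libraries moved the value: it was −1.25 (adjusted p = 0.0734 in edgeR) without high-dose replicate 2, −0.48 without high-dose replicate 1 and −0.51 without vehicle replicate 2. A difference in NR1H4 was not detectable at this depth.

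NR0B2, the gene of SHP (ENSG00000131910, chr1:26911489-26913975, minus strand), was lower at the high dose. Its levels in replicates 1, 2 and 3 were 6.49, 4.30 and 4.75 CPM with vehicle, 5.19, 6.31 and 5.42 CPM at the low dose, 3.90, 4.41 and 3.24 CPM at the medium dose and 2.43, 3.47 and 2.89 CPM at the high dose. Every high-dose library lay below every vehicle and every low-dose library, while the medium dose overlapped with both vehicle and high dose. The group means were 5.18 ± 1.16, 5.64 ± 0.592, 3.85 ± 0.588 and 2.93 ± 0.520 CPM from vehicle to high dose (SD, n = 3).

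The high-dose log2 fold change of NR0B2 was −0.82 (SE 0.189, a decrease of 43.5%). This value was known when the genes were chosen, so it is a description and its p is not given. The medium dose gave −0.41 (SE 0.180, adjusted p = 0.409 in edgeR), while the low dose gave 0.14 (SE 0.174, adjusted p = 0.874 in edgeR). Against the low dose, the high-dose level was lower by a log2 difference of −0.96 (SE 0.186), and the slope was −0.30 (SE 0.0704) on the log2 scale per dose step. Both rest on the same high-dose libraries and are likewise given without a test. In the trend test FGF19 and, with those libraries, NR0B2 passed, where 5.74% of all genes did. The high-dose value was −0.82 with mitochondrial genes left out and −0.91 with high-dose replicate 2 left out. The adjusted p was over 0.05 without vehicle replicate 1, vehicle replicate 3, high-dose replicate 1 or high-dose replicate 3, where log2 fold changes ran from −0.87 to −0.64.

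**Figure D2:**
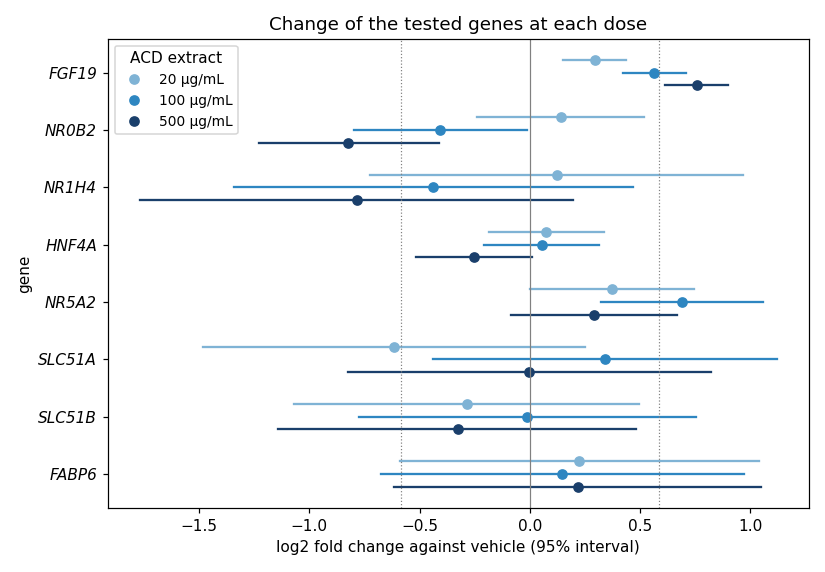
Log2 fold change against vehicle of the 8 tested genes at ACD 20, 100 and 500 µg/mL (points) with 95% intervals (lines) from edgeR. Dotted lines mark a 1.5-fold change. FGF19 moves right at each dose up to 0.76, NR0B2 reaches −0.82 at the high dose, and the intervals of NR1H4, SLC51A, SLC51B and FABP6 all cover 0.

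HNF4A and NR5A2 encode the nuclear receptors HNF4-alpha, a main factor of liver and gut epithelium, and LRH-1, which drives bile acid synthesis genes in liver. NR5A2 (ENSG00000116833, chr1:200027614-200177420, plus strand) was at 6.05, 7.58 and 10.7 CPM with vehicle, 12.1, 9.55 and 9.94 CPM at the low dose, 11.5, 14.2 and 13.6 CPM at the medium dose and 10.2, 9.91 and 9.81 CPM at the high dose. It was highest at the medium dose, where every library lay above every vehicle library. Vehicle replicate 3 lay apart from the other vehicle libraries and within the range of the low dose.

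The medium-dose log2 fold change of NR5A2 was 0.69 (SE 0.169, 1.61-fold) with an adjusted p of 0.0898 in edgeR. The adjusted p was 0.0148 with DESeq2, 0.0262 in edgeR without high-dose replicate 2 and 0.0180 in edgeR without vehicle replicate 3, where the log2 fold change was 0.94. At the low dose the log2 fold change was 0.37 (SE 0.171, adjusted p = 0.623 in edgeR) and at the high dose 0.29 (SE 0.173, adjusted p = 0.387 in edgeR). The values thus did not rise with dose, and the slope of 0.12 (SE 0.0735) per dose step did not pass the trend test (adjusted p = 0.384 in edgeR).

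HNF4A (ENSG00000101076, chr20:44355699-44432845, plus strand) was at 85.8, 96.2 and 100.3 CPM with vehicle, 104.4, 103.5 and 89.4 CPM at the low dose, 102.5, 91.9 and 99.0 CPM at the medium dose and 89.1, 62.7 and 85.1 CPM at the high dose. The lowest of the 12 values was that of high-dose replicate 2. The high-dose log2 fold change was −0.25 (SE 0.121, 95% interval −0.51 to 0.01, adjusted p = 0.276 in edgeR), and −0.11 (adjusted p = 0.324 in edgeR) without that library. Against the low dose the high-dose libraries just failed to overlap (89.1 against 89.4 CPM), with a log2 difference of −0.32 (SE 0.121, adjusted p = 0.210 in edgeR), and −0.19 without high-dose replicate 2. At the low and medium doses the log2 fold changes were 0.07 (SE 0.120) and 0.05 (SE 0.120).

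SLC51A (ENSG00000163959, chr3:196211487-196243178) and SLC51B (ENSG00000186198, chr15:65045387-65053397) encode the chains of the basolateral bile acid exporter. SLC51A ranged from 3 to 18 counts per library and SLC51B from 5 to 19. SLC51A was at 0.605, 0.303 and 0.483 CPM with vehicle and 0.585, 0.212 and 0.461 CPM at the high dose, so the groups coincided almost wholly. Its high-dose log2 fold change was −0.0012 (SE 0.379, 95% interval −0.83 to 0.82). SLC51B was at 0.716, 0.485 and 0.308 CPM with vehicle and 0.405, 0.354 and 0.400 CPM at the high dose, again overlapping, with a log2 fold change of −0.33 (SE 0.373, 95% interval −1.14 to 0.48).

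FABP6 (ENSG00000170231, chr5:160187367-160238735), the cytosolic bile acid binding protein of the ileum, had 6 to 20 counts per library. It was at 0.716, 0.394 and 0.308 CPM with vehicle and 0.495, 0.425 and 0.615 CPM at the high dose, with a log2 fold change of 0.22 (SE 0.382, 95% interval −0.62 to 1.05). At the low and medium doses SLC51A, SLC51B and FABP6 had log2 fold changes between −0.61 (SLC51A, low dose) and 0.34 (SLC51A, medium dose), all overlapping with vehicle. Their adjusted p in edgeR lay between 0.689 and 1 over the 3 doses. The intervals reach past a 1.5-fold change in one or both directions for all 3 genes, so a difference of that size was not detectable at this depth.

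SLC10A2 (ENSG00000125255, chr13:103043998-103066417, minus strand), the apical sodium-dependent bile acid transporter, had 43 counts over all 12 libraries and was not tested. Its counts in replicates 1, 2 and 3 were 3, 5 and 4 with vehicle, 2, 5 and 4 at the low dose, then 5, 6 and 3 at the medium and 4, 0 and 2 at the high dose. The 0 of high-dose replicate 2 allows up to 0.212 CPM (3 counts of its total, counting error only), which is above its level in most of the other libraries.

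Exons of genes on the opposite strand overlap those of SLC51A, SLC51B and FABP6, and the strand setting of the counting was not stated in the sources used here. PCYT1A, opposite SLC51A, was at 73.3 to 88.4 CPM, far above SLC51A itself. RASL12, opposite SLC51B, reached at most 0.220 CPM, and FABP6-AS1, opposite FABP6, at most 0.0615 CPM. Their part in the levels of the 3 genes was not tested.

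Groups that do not overlap were common among all genes. At the high dose 2 of the 8 tested genes did not overlap with vehicle (FGF19 and NR0B2), against 22.0% of all genes. At the medium dose 2 did (FGF19 and NR5A2) against 28.7%, at the low dose 1 (FGF19) against 21.0%, and between high and low dose 3 (FGF19, NR0B2 and HNF4A) against 20.2%. At each dose the share was near or below the background. Between high and low dose the share was above it, but HNF4A was apart only by 89.1 against 89.4 CPM. The fall of NR0B2 at the high dose was known when the genes were chosen, so nothing is read from that share.

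Other genes of the pathway were followed in lists of 69 genes, of which 41 were tested. At the high dose 4 were called upward (ABCC2, PLTP, C3 and ICAM1) and 1 downward (IL18), where 2.93% of all genes were called. The change of ABCC2 was among the earlier results, and C3 passed the filter on low counts only through the ACD groups, so neither call is support. ABCC2, the canalicular exporter of conjugates, rose with its levels going from 0.440, 1.00 and 0.791 CPM with vehicle to 2.21, 1.27 and 1.69 CPM at the high dose. Its log2 fold change was 1.17 (SE 0.271). ABCC3, the basolateral exporter of the same family, went from 445.8 ± 25.0 to 631.3 ± 127 CPM (SD, n = 3) with a log2 fold change of 0.50 (SE 0.123, adjusted p = 0.0336 in edgeR), under the 1.5-fold minimum. Its high-dose libraries were at 710.4, 485.3 and 698.3 CPM, and without replicate 2, the lowest, the log2 fold change was 0.66 (1.58-fold, adjusted p = 8.52e-07 in edgeR), which was called. ATP8B1, a phospholipid flippase of the canalicular membrane, had a log2 fold change of −0.11 (SE 0.0883), and −0.043 without that library. The 5 tested genes of the list of other bile acid and biliary lipid transporters had a median log2 fold change of 0.42. Over all genes the median was 0.00523. Without that library the 2 medians were 0.21 and −0.0114. These fits of the other pathway genes without high-dose replicate 2 were added after seeing the data.

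In the list of other FXR targets, 3 of 8 tested genes were called upward at the high dose, C3 among them, and 1 downward, with a median log2 fold change of 0.26. Without high-dose replicate 2 a second gene was called downward, ANG, and 4.90% of all genes were called. PLTP, a phospholipid transfer protein, went from 1.38, 1.39 and 1.19 CPM with vehicle to 2.88, 1.98 and 2.74 CPM, a log2 fold change of 0.96 (SE 0.179, adjusted p = 0.00775 in edgeR). ICAM1, an adhesion molecule of inflammation, went from 3.63, 5.03 and 4.92 CPM to 11.4, 10.4 and 10.9 CPM, a log2 fold change of 1.25 (SE 0.119, adjusted p = 6.96e-05 in edgeR). For both, no high-dose library overlapped with vehicle. ANG, the gene of angiogenin, went from 1.67 ± 0.305 to 0.948 ± 0.221 CPM (SD, n = 3), a log2 fold change of −0.86 (SE 0.249, adjusted p = 0.0658 in edgeR), and −1.02 (adjusted p = 0.0142 in edgeR) without high-dose replicate 2. In the trend test 3 genes of this list sloped upward (PLTP, C3 and ICAM1) and 2 downward (ANG and IL18).

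C3, the central complement component, had 1 count in all 3 vehicle libraries together, so no fold change is given. It was at 0.684 ± 0.178 CPM at the low, 1.46 ± 0.410 at the medium and 1.78 ± 0.315 at the high dose (SD, n = 3), against 0.0184 ± 0.0318 with vehicle, with every treated library above every vehicle library. It passed the filter through the treated groups, so its calls at all 3 doses follow in part from that and their p-values are not given. IL18, an epithelial cytokine, fell from 4.02, 3.55 and 3.47 CPM to 1.98, 2.83 and 2.12 CPM, a log2 fold change of −0.69 (SE 0.183, adjusted p = 0.0462 in edgeR). The 2 best-expressed genes of this list, SDC1 and CA12, had log2 fold changes of −0.09 and 0.10. Without high-dose replicate 2 these were −0.024 and 0.21, for CA12 with adjusted p = 0.0172 in edgeR, under the 1.5-fold minimum. C3, ICAM1 and IL18 are also genes of inflammation, and C3 and ICAM1 moved up while IL18 moved down.

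**Figure D3:**
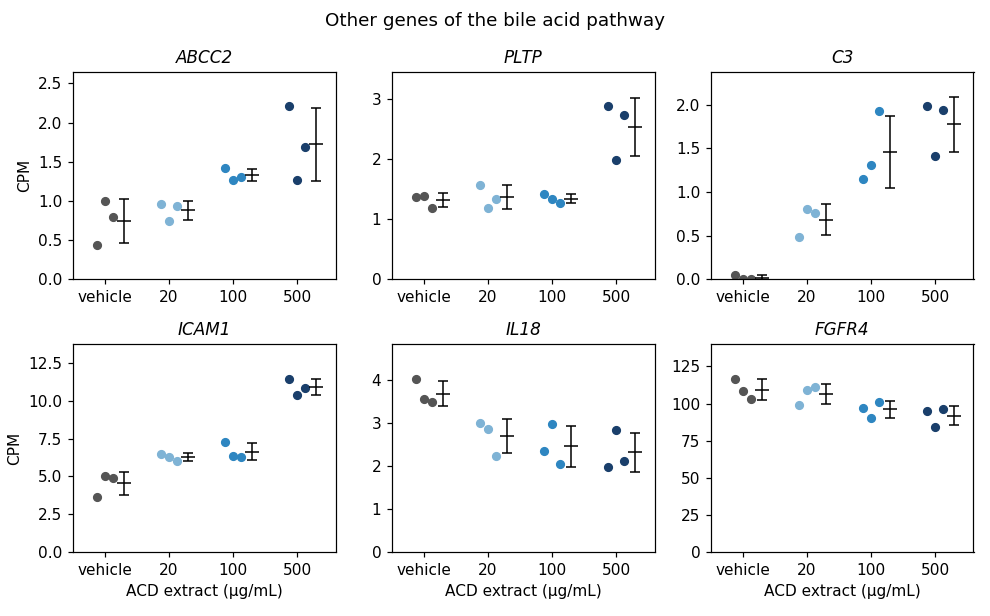
Levels in CPM of 6 other genes of the pathway in the 12 libraries by vehicle and ACD dose in µg/mL, with the mean ± SD of 3. ABCC2, PLTP, C3 and ICAM1 are highest at the high dose, IL18 is lowest there, and FGFR4 slopes from 109.4 to 91.9 CPM.

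In the remaining lists edgeR called no gene at any dose, and DESeq2 called 1, FOXA2 at the high dose, where it called 3.10% of all genes. The partner receptor RXRA, at 179.2 ± 7.15 CPM with vehicle, had a log2 fold change of 0.08 (SE 0.154) and VDR, a receptor that also senses bile acids, of 0.18 (SE 0.111) at the high dose. Without high-dose replicate 2 these were 0.29 (SE 0.0601, adjusted p = 0.00284 in edgeR) and 0.32 (SE 0.0629, adjusted p = 0.00201 in edgeR), both under the 1.5-fold minimum. Among the bile acid synthesis and conjugation enzymes, 0 of 7 tested genes were called in edgeR or DESeq2, with 1 at an unadjusted p under 0.05 at the high dose in edgeR, where 20.1% of all genes were. HSD17B4 and SCP2, both peroxisomal, had log2 fold changes of 0.13 and 0.07. SCP2 was at 77.0, 129.0 and 76.8 CPM at the high dose, and without replicate 2 the values were 0.027 for HSD17B4 and −0.22 for SCP2 (adjusted p = 0.0457 in edgeR, under the 1.5-fold minimum). Of the 14 tested intestinal and hepatic transcription factors, 3 were above 0 at the high dose, with a median log2 fold change of −0.24 and 9 genes at an unadjusted p under 0.05 in edgeR, against 20.1% of all genes. Without high-dose replicate 2 the median was −0.16. The best covered, ONECUT2 and NR2F2, were at −0.42 (SE 0.176, adjusted p = 0.202 in edgeR) and −0.29 (SE 0.115, adjusted p = 0.175 in edgeR), and at −0.19 and −0.16 without that library. In the trend test HNF4G and FOXA2 of this list sloped downward and CDX2 upward. Of the HNF4A lipid transport targets, FABP1 alone was tested, with a log2 fold change of 0.17 (SE 0.216), and 0.031 without that library, and TTR was at 0.348 CPM with vehicle.

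The genes whose levels ran most like those of FGF19 over the 12 libraries, among 13140 tested genes with a mean of at least 1 CPM, were CXCL1 and PI3 (Pearson r of log2 CPM 0.977 each), DUSP5 (0.969), TIPARP (0.968) and ALDH3A1 (0.967). Without high-dose replicate 2 these values were 0.974, 0.975, 0.963, 0.967 and 0.961. All 5 were higher at the high dose, by log2 fold changes from 0.97 for DUSP5 to 4.04 for CXCL1. The genes most like NR0B2 were GTF2IP4 and SLC20A1-DT (0.983 each), GFOD2 (0.961), ASH2L (0.935) and ATP6V1B1 (0.927), and their high-dose log2 fold changes ran from −0.74 for ATP6V1B1 to −0.14 for ASH2L. The libraries of a dose share the treatment, and the 5 highest of 13140 values are high by selection, so no p is given.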

How the data were processed

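RNA of 12 HT29 libraries was read from 1 table. Per the submitters' processing notes, the authors used FastQC 0.11.9, Trim Galore 0.6.5, STAR 2.7.3a and RSEM 1.3.3, and the paper's methods name the annotation GRCh38.84. The deposited values are RSEM's expected counts, made by the authors without normalization from a directional library kit. The strand setting was not given in the sources used here.

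Expected counts were rounded and tested in edgeR 4.0.16 under R 4.3.3 (quasi-likelihood F test): filterByExpr, TMM, robust estimation, 4 groups in 1 fit, Benjamini–Hochberg adjustment over 15374 genes. Calls needed a change of more than 1.5-fold besides an adjusted p below 0.05, while the trend test, on dose rank, needed the p alone. SEs are the coefficient without prior count over the root of F. CPM used TMM-scaled totals, and log2 CPM a prior count of 2. Exon lengths and coordinates came from GENCODE 44 (GRCh38). The script was tested on simulated data. DESeq2 1.42.0, other filters and normalizations, and leaving out libraries were alternatives. The genes named were all 9, list genes called at any dose, the 2 best-expressed of each list and the 5 genes most like each called gene. Members and lists were chosen with earlier results of these data known. Other genes named were picked after their values were seen. Other cell lines of the study were not analysed here.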

Additional observations from a re-analysis of the deposited data

How the results depend on the processing

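Over 32 single values of the 8 tested genes, 648 alternative values were computed: 612 kept their direction and side of the threshold, 13 lost the call, 8 gained it and 15 changed sign. FGF19 was called at the high dose under all 21 alternatives and NR0B2 under 15.

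Of the members called at the high dose, 1 was left with DESeq2 or edgeR on the groups compared alone, and 1 to 2 when single libraries were left out. The gene lost was NR0B2, with a log2 fold change of −0.82 in both of the former. At the medium dose the count was 1 (NR5A2) with DESeq2 on all libraries, on the groups alone or on 11 libraries (high-dose replicate 2 left out, chosen after seeing the data), and with no filter on low counts. It was 1 (FGF19) with no minimum fold change, and 0 to 1 with a library left out: FGF19 without medium replicate 1 or 2 (log2 fold changes 0.59 in both), NR5A2 without vehicle replicate 3 or high-dose replicate 2. Between high and low dose it was 0 in edgeR on the groups alone, 2 with no minimum fold change and 0 to 1 with a library left out, being 0 without low replicate 2, high replicate 1 or high replicate 3. In the trend it was 1 to 2, being 1 without vehicle replicate 1, high replicate 1 or high replicate 3.

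None of the values that changed sign was called. SLC51A at the high dose became 0.0019 with DESeq2 size factors, −0.28 to 0.22 with a library left out and 0.21 with DESeq2 without high-dose replicate 2. SLC51B at the medium dose became 0.0020 in edgeR on the groups alone and −0.26 to 0.26 with a library left out. With a library left out, FABP6 ran from −0.057 to 0.49 at the medium and from −0.0098 to 0.57 at the low dose, HNF4A from −0.0072 to 0.11 at the medium dose, NR1H4 from −0.0031 to 0.38 at the low dose and NR5A2 from −0.14 to 0.043 between high and low dose. The cause was not tested.

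Over all genes, the calls ranged with the alternative from 172 to 887 at the high dose (451 in the fit reported), 52 to 249 at the medium (104), 10 to 109 at the low (17), 87 to 458 between high and low dose (243) and 452 to 2983 in the trend (882). The top of the ranges came with no minimum fold change at the high dose and between doses, and without high-dose replicate 2 at the medium and low doses and in the trend (there with DESeq2). The replicate numbers did not pair the libraries: over 18 pairs of the same number the correlation of deviations ran from −0.26 to 0.14, and 1 of 12 libraries correlated best with its own number. With the replicate as a block, 2, 0, 0, 1 and 2 members were called at the high, medium and low dose, between high and low dose and in the trend, and 379, 75, 17, 197 and 592 genes in all. Depth limited the genes under 1 CPM, where a 1.5-fold change could not be told from none.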
